A study of Mus musculus with 6 samples.

Results

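The small leucine-rich proteoglycans are secreted matrix proteins with a core of leucine-rich repeats, and 10 of their genes, *Dcn*, *Bgn*, *Aspn*, *Fmod*, *Lum*, *Prelp*, *Kera*, *Omd*, *Ogn* and *Epyc*, were followed here in tail tendon. They were picked by symbol from the 44788 genes of the count table, and all 10 also passed the filter on low counts, which kept 14550 genes. The table came from bulk RNA sequencing of whole tail tendons from C57BL/6 mice that were either wild type (WT) or lacked *Mkx* (Mkx-/-), with 3 libraries of each genotype. *Mkx* encodes Mohawk, a homeobox transcription factor of tendon cells, and the comparison of the genotypes asks which genes change when it is lost. The sample labels put the age of all mice at 3 weeks, while the text of the paper gives another age. The Mkx-/- line was obtained from another laboratory, and no cell type-specific driver is described for it. The labels number the libraries as replicates without tying each to a separate mouse, so the p-values measure only the spread between these libraries.

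Small leucine-rich proteoglycans bind collagen fibrils along their surface and are known for setting how fibrils assemble, how thick they grow and how far apart they lie. Class I members such as decorin and biglycan carry chondroitin or dermatan sulfate chains, class II members such as fibromodulin, lumican and keratocan carry keratan sulfate or unsulfated sugars and often sulfated tyrosines, and class III holds osteoglycin and epiphycan. In tendon, loss of biglycan together with fibromodulin is known to lead to ectopic bone, and several of these proteins also hold growth factors such as TGF-beta in the matrix.

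The libraries held between 10835070 and 14160301 counts. *Col1a1*, *Col1a2* and *Sparc* alone took 42.0% to 48.5% of them in WT and 28.3% to 34.8% in Mkx-/- tendons, so all levels below were scaled with edgeR's TMM factors and are given as normalized CPM, counts as a fixed proportion of the scaled library size. *Mkx* itself had 1381 to 1825 counts in WT and 491 to 620 in Mkx-/- libraries, lower but not absent. WT replicate 3 was the single library with reads on the Y-linked gene *Ddx3y* (301 counts), and the only 1 with almost no *Xist* (1 count). All 7 tendon markers were counted in every library. Their sum, most of it *Col1a1* and *Col1a2*, lay at 359406 to 504051 normalized CPM in WT and at 224712 to 315202 in Mkx-/- libraries. Of the 7, *Thbs4* was upregulated (log2 fold change 1.26, adjusted p = 0.0118, edgeR). The others did not pass the test, with log2 fold changes of 1.13 for *Tnc*, -0.024 for *Tnmd*, -0.68 for *Col1a1*, -1.02 for *Col1a2*, -1.13 for *Egr1* and -1.14 for *Scx*. Summed over 10 genes, skeletal muscle markers lay at 32.9 to 343 normalized CPM in WT and at 474 to 2507 in Mkx-/- libraries, and 8 endothelial markers at 60.7 to 77.1 against 105 to 141. Of the 8, only *Erg* was upregulated, from a mean of 8.30 to 36.0 CPM (log2 fold change 2.12, adjusted p = 0.00195, edgeR). The remaining endothelial markers did not pass. Their log2 fold changes were 1.30 for *Pecam1*, 1.06 for *Cdh5*, 0.69 for *Cldn5*, 0.65 for *Kdr*, 0.019 for *Tek*, -0.26 for *Emcn* and -0.32 for *Esam*. Macrophage and leukocyte markers (7 genes) lay at 414 to 465 against 272 to 324, and Schwann cell markers (6 genes) at 7556 to 10022 against 11809 to 22021. Cartilage markers (10 genes, *Matn1* at 0 in all libraries) overlapped in their sum, most of it *Col2a1*, at 545 to 1080 against 816 to 1325. *Acan*, *Matn3* and *Ucma* of this list were upregulated and the other tested ones did not pass, with values given below. Over all tested genes 1.89% were upregulated, the background for all these markers. Their part in the differences below was not tested, and in whole tissue a change in the number of cells of a type and a change in the RNA of each cell cannot be told apart.

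Of the 10 genes, 5 were higher in Mkx-/- tendons at an adjusted p under 0.05 over all genes tested in edgeR's quasi-likelihood test, and none was lower. This held for 3.18% of all tested genes in the upward and 2.26% in the downward direction. *Bgn* and *Prelp* also passed the fold threshold of a log2 fold change above 1 and are called upregulated below, as were 1.89% of all genes. No member was called downregulated, against 1.33% of all genes, while at an unadjusted p under 0.05, 6 members were higher and 1, *Omd*, was lower. At that unadjusted threshold 12.5% of all tested genes were higher and 10.1% lower. DESeq2 also called 2 members upregulated and 0 downregulated. In 7 of the 10 genes the libraries of the genotypes did not overlap, a pattern shared by 28.2% of all tested genes. The median log2 fold change was 0.80 over the members and -0.0037 over all tested genes. With scaling by total counts, which moved the median of all genes up by 0.25 and the upward share of all calls from 58.8% to 82.2%, 5 members were upregulated. The 5 members past an adjusted p of 0.05 depended on single libraries, with a count of 1 without WT replicate 2, 2 without WT replicate 3 and 2 without Mkx-/- replicate 2.

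**Figure D1:**
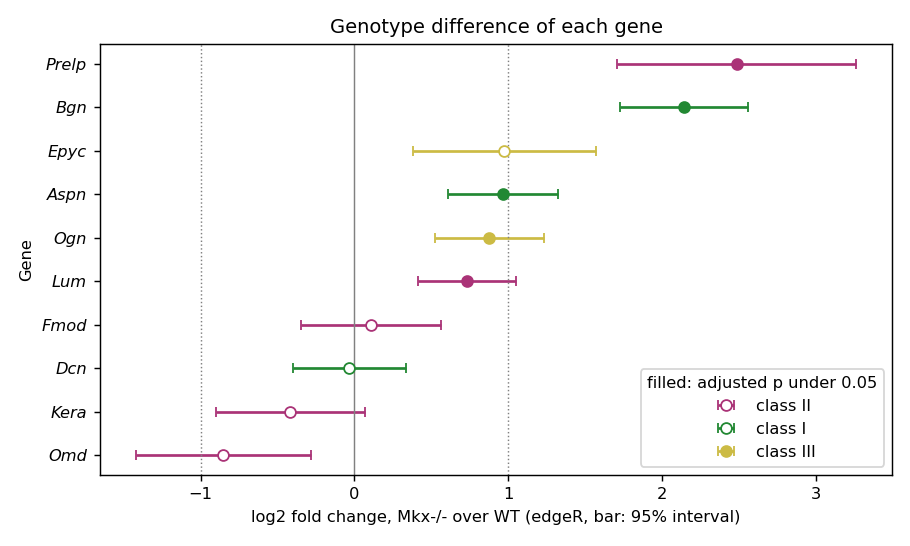
Log2 fold change of Mkx-/- over WT for each gene, with unadjusted 95% intervals from edgeR's fit (3 libraries per genotype). Colors mark the class and filled points an adjusted p under 0.05. *Prelp* and *Bgn* lie above the dotted line at 1, and *Fmod* and *Dcn* lie next to 0.

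Expressed per kilobase of exon, so that genes can be compared, the levels of the members differed widely. *Fmod* stood first in WT tendons with 4930 ± 258 normalized CPM per kilobase (SD, n = 3), followed by *Dcn* with 2248 ± 209. *Kera* (383 ± 74.99), *Bgn* (303 ± 46.1), *Prelp* (182 ± 79.3) and *Ogn* (107 ± 11.2) formed the middle of the order. *Lum* (53.4 ± 3.79), *Aspn* (46.5 ± 7.70), *Epyc* (7.75 ± 2.69) and *Omd* (4.53 ± 0.786) stood last. Within this WT order the ranges of *Kera* and *Bgn*, of *Prelp* and *Ogn*, of *Lum* and *Aspn*, and of *Epyc* and *Omd* overlapped, while the other neighbors were apart. In Mkx-/- tendons *Fmod* (5313 ± 641) and *Dcn* (2197 ± 50.1) kept the first places. *Bgn* stood next with 1339 ± 115 and *Prelp* after it with 1017 ± 258 (SD, n = 3 each), with overlapping ranges, and both now lay above *Kera* (287 ± 59.8), whose range overlapped that of *Ogn* (197 ± 29.7). *Aspn* (90.7 ± 8.79) and *Lum* (88.6 ± 12.1) again overlapped, and the range of *Omd* (2.51 ± 0.693) lay apart from that of *Epyc* (15.2 ± 3.26).

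**Figure D2:**
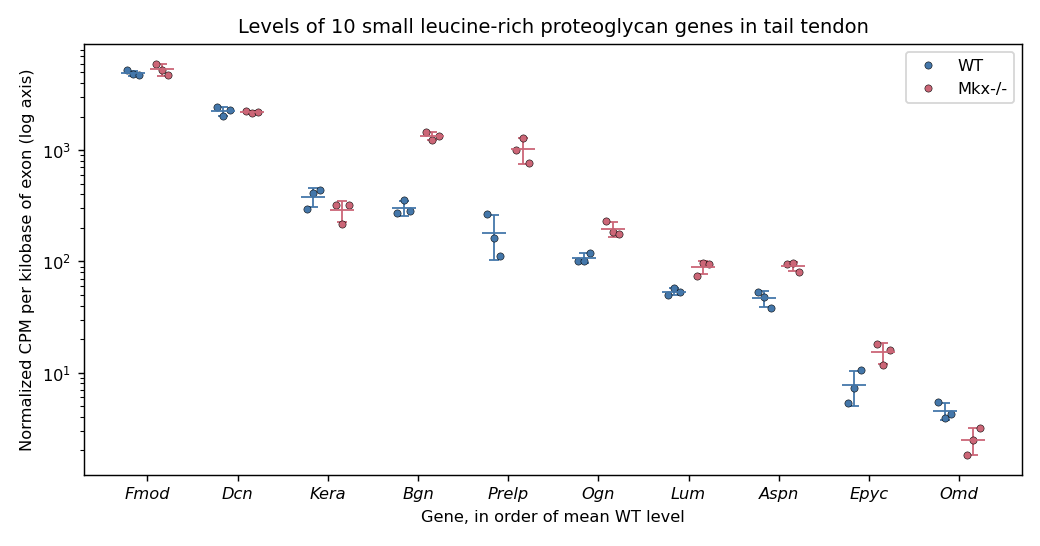
Normalized CPM per kilobase of exon on a log axis for the 10 genes in order of their WT mean, with points for single libraries and bars for the mean ± SD of 3 libraries per genotype. The Mkx-/- points of *Bgn* and *Prelp* lie above all WT points of *Kera*, while the points of both genotypes overlap for *Fmod* and *Dcn*.

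Among the class I genes, *Bgn* changed and *Dcn* did not pass the test. *Bgn* encodes biglycan, a proteoglycan with a pair of chondroitin or dermatan sulfate chains. It lies on the plus strand of chromosome X from 70728941 to 70741272 in the mouse build mm9. Its normalized level was 964, 1268 and 1009 CPM in the WT libraries and 5175, 4358 and 4777 CPM in the Mkx-/- libraries. Every Mkx-/- library thus stood more than 3 times above the highest WT library. The male WT library, replicate 3, lay between the others for this X-linked gene. The log2 fold change was 2.14 ± 0.18 (SE) in edgeR, with adjusted p = 0.00115 and a fold of 4.42, and it ranked 20th by p among the 14550 genes. The log2 value lay between 2.06 and 2.40 over the 16 alternatives, and *Bgn* was upregulated in each of them.

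The start of *Bgn* is shown here as the RefSeq promoter entry of the build GRCm38.p6 (chrX:73483351-73483650, plus strand, 250 bases before and 50 after the start), because it is the member with the smallest p. Capitals mark matches on either strand to any of 6 motifs. The TATA box was searched as TATAAA, and the GC box was searched as GGGCGG. The CCAAT box was read by its own letters, and the E-box as CANNTG. The AP-1 site was taken as TGANTCA, and the Runx core as TGTGGT.
Bgn: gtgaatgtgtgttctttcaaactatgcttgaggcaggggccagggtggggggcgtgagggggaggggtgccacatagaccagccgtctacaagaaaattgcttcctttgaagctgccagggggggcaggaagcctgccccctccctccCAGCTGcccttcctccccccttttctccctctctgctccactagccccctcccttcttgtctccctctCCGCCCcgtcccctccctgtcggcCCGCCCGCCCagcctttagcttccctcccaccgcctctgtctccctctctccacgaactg
It held 3 GC boxes, of which a pair overlapped, and 1 E-box, and its GC content was 63.7%, against a median of 52.7% over 32851 promoters of this length. A GC box was present in 35.7% and an E-box in 72.3% of those promoters. Of the 10 members, 8 had an entry, and *Bgn* was the only 1 of these with a GC box. An E-box was found in 6 of the 8, a CCAAT box in 4, a TATA box in 2, a Runx core in 2 and an AP-1 site in 0, where all promoters gave 72.3%, 37.4%, 13.6%, 16.8% and 7.81%. *Dcn* and *Lum* had no entry.

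*Dcn*, which encodes decorin, the other main class I proteoglycan of tendon, lies on the plus strand of chromosome 10 from 96942245 to 96980777. Its level was 4716, 3918 and 4429 CPM in WT and 4339, 4149 and 4281 CPM in Mkx-/- libraries. The Mkx-/- values fell inside the WT range. Its log2 fold change was -0.033 ± 0.16 (SE) in edgeR (adjusted p = 0.934), with an unadjusted 95% interval of -0.40 to 0.33. Its sign turned to 0.21 with scaling by total counts and to 0.027 without WT replicate 1, and it passed the test in neither.

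*Aspn* encodes asporin, a class I protein without a typical sugar chain that binds collagen at a site shared with decorin and holds back TGF-beta and BMP signaling. It had 126, 112 and 89.8 CPM in WT and 221, 228 and 189 CPM in Mkx-/- libraries, so that all 3 Mkx-/- libraries were above the WT libraries. It rose by a log2 fold change of 0.96 ± 0.16 (SE) in edgeR, with adjusted p = 0.0140, just under the fold threshold. The adjusted p was 0.0663, 0.0592 and 0.0531 without WT replicates 2 and 3 and Mkx-/- replicate 2 (3.46e-06 to 0.0663 over the alternatives). The log2 fold change was above 1, with the test still passed, without WT replicate 1 (1.08), without Mkx-/- replicate 3 (1.04) and with total-count scaling (1.21).

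Since decorin shares collagen with both of its relatives, the ratios of their CPM were taken in each library. These CPM are not divided by gene length, so a ratio is compared only between genotypes and not with 1. Per kilobase, *Bgn* stayed below *Dcn* in Mkx-/- tendons (means of 1339 against 2197). *Bgn* to *Dcn* was 0.204, 0.324 and 0.228 in WT and 1.19, 1.05 and 1.12 in Mkx-/- libraries. *Aspn* to *Dcn* was 0.0266, 0.0285 and 0.0203 against 0.0510, 0.0548 and 0.0442. Neither ratio overlapped between the genotypes. For the class II pair *Fmod* to *Lum*, whose proteins share a binding site on collagen I, the ratio was 168, 135 and 141 in WT and 128, 86.6 and 79.2 in Mkx-/- libraries, again without overlap. Each ratio had p = 0.1 in a two-sided exact permutation test (n = 3 per genotype, adjusted p = 0.1 over the 3 ratios), the smallest value that 3 libraries against 3 can give. The log2 differences were 2.18, 1.002 and -0.62.

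**Figure D3:**
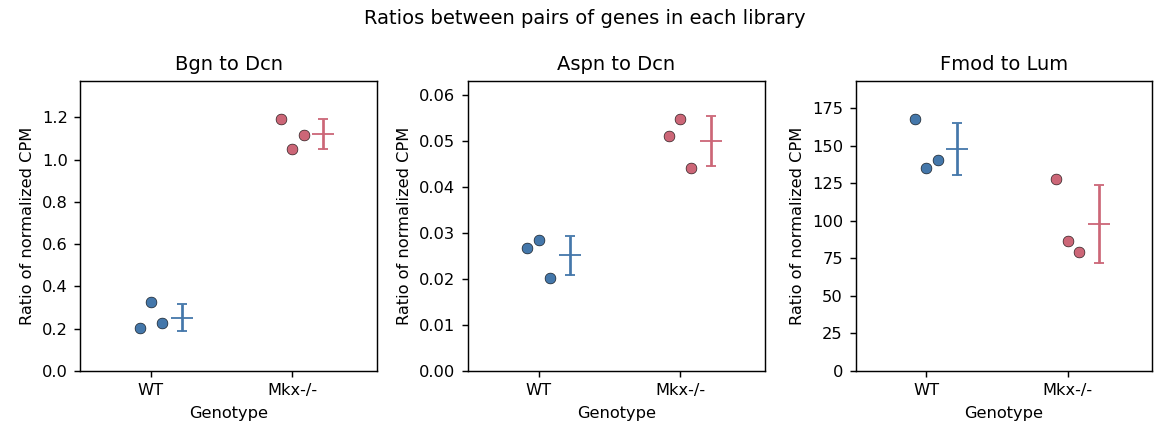
Ratios of normalized CPM for *Bgn* to *Dcn*, *Aspn* to *Dcn* and *Fmod* to *Lum* in each library, with the mean ± SD of 3 libraries per genotype beside the points. The first ratio goes from at most 0.324 in WT to at least 1.05 in the Mkx-/- libraries. The CPM are not divided by gene length.

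Of the 5 class II genes, *Prelp* and *Lum* rose, and *Fmod*, *Kera* and *Omd* did not pass the test. *Prelp* encodes prolargin, a heparin-binding protein with a basic amino terminus that is abundant in cartilage and links basement membranes to collagen. It lies on chromosome 1, minus strand, from 135806881 to 135817991. It had 970, 593 and 408 CPM in WT and 3596, 4645 and 2783 CPM in Mkx-/- libraries. The groups were far apart although the WT libraries differed more than 2-fold among themselves, with replicate 1 highest. The log2 fold change of 2.48 ± 0.34 (SE) (adjusted p = 0.00645, edgeR) was the largest of the family, a 5.59-fold rise. Without WT replicate 2 the adjusted p was 0.0509 at a log2 fold change of 2.40 (8.88e-15 to 0.0509 over the alternatives), and in the other 15 alternatives *Prelp* was upregulated.

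*Fmod* encodes fibromodulin, which binds collagen I and is a marker of mature tendon cells. It lies on the plus strand of chromosome 1 from 135933831 to 135944854, 116 kb from *Prelp*. It was the most abundant member with 17261, 16005 and 15633 CPM in WT and 19825, 17244 and 15622 CPM in Mkx-/- libraries. These ranges overlapped, and the call of *Prelp* was not tested against *Fmod*. Between genotypes the log2 fold change was 0.11 ± 0.20 (SE) in edgeR (adjusted p = 0.800), with a 95% interval of -0.35 to 0.56, and -0.0087 without Mkx-/- replicate 1. The promoter entries of *Prelp* (chr1:133921352-133921651, minus strand) and *Fmod* (chr1:134037004-134037303, plus strand) of GRCm38.p6 are set side by side because these genes share a cluster and only *Prelp* passed the test, with matches to the same motifs in capitals.
Prelp: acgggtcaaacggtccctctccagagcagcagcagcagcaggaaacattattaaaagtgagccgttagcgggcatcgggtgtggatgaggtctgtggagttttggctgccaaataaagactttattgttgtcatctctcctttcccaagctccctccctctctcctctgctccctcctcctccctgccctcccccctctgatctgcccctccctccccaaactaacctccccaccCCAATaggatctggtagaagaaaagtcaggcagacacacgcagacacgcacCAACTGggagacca
Fmod: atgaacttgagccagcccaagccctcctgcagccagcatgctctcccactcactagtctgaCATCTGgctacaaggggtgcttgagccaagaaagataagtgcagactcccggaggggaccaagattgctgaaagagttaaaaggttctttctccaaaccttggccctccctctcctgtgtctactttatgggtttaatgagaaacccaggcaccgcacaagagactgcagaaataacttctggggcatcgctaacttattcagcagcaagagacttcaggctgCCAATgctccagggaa
Each held 1 CCAAT box and 1 E-box at different places and no match to the other motifs. Their GC content was 55.3% and 51.0%.

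*Lum* encodes lumican, a keratan sulfate proteoglycan of cornea, skin and tendon. It had 103, 118 and 111 CPM in WT and 155, 199 and 197 CPM in Mkx-/- libraries, without overlap. It rose by a log2 fold change of 0.73 ± 0.14 (SE) in edgeR, with adjusted p = 0.0248. The adjusted p was above 0.05 without WT replicate 2 (0.0769), WT replicate 3 (0.0980), Mkx-/- replicate 2 (0.0883) or Mkx-/- replicate 3 (0.0906), and the range over the alternatives was 0.000235 to 0.0980.

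*Kera* encodes keratocan, best known from the cornea and also found in tendon. It had 587, 810 and 866 CPM in WT and 634, 429 and 633 CPM in Mkx-/- libraries. The lowest WT library lay below the highest Mkx-/- library, so the genotypes overlapped. The log2 fold change was -0.42 ± 0.21 (SE) in edgeR (adjusted p = 0.290), with a 95% interval of -0.90 to 0.066. It was -0.25 without Mkx-/- replicate 2 and -0.15 with total-count scaling.

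*Omd* encodes osteomodulin, a keratan sulfate proteoglycan of bone that binds collagen and hydroxyapatite. It was the rarest member, with 107, 62 and 83 counts in WT and 31, 55 and 63 in Mkx-/- libraries. Its level was 8.43, 6.09 and 6.65 CPM in WT and 2.84, 3.86 and 4.99 CPM in Mkx-/- libraries, all of the latter below all of the former. With a log2 fold change of -0.85 ± 0.25 (SE), *Omd* missed the threshold (edgeR adjusted p = 0.0875, DESeq2 adjusted p = 0.0530, 0.0524 to 0.220 over the alternatives). Its direction was the same in all 16 alternatives.

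Of the class III genes, *Ogn* encodes osteoglycin or mimecan, a small protein of bone, cartilage and other connective tissue. It had 255, 258 and 305 CPM in WT and 586, 469 and 445 CPM in Mkx-/- libraries. The lowest Mkx-/- library was well above the highest WT library. *Ogn* rose by a log2 fold change of 0.88 ± 0.16 (SE) in edgeR, with adjusted p = 0.0191. The adjusted p was 0.0895 without WT replicate 2, 0.0590 without WT replicate 3 and 0.0523 without Mkx-/- replicate 2 (1.44e-05 to 0.0895 over the alternatives), and the log2 fold change passed 1 with total-count scaling (1.12).

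*Epyc* encodes epiphycan, a dermatan sulfate proteoglycan of growth plate cartilage. It had 13.6, 18.6 and 27.2 CPM in WT and 46.0, 29.8 and 41.4 CPM in Mkx-/- libraries. The lowest Mkx-/- library, replicate 2, lay just above the highest WT library. The log2 fold change of 0.97 ± 0.26 (SE) missed the threshold in edgeR (adjusted p = 0.0708) and was past an adjusted p of 0.05 in DESeq2 (0.00777), with the filter of 1 count (0.00486) and with total-count scaling (0.0151), over a range of 0.00486 to 0.188. Of the 10 cartilage markers 8 had enough counts to test, and 3 of these, *Acan*, *Matn3* and *Ucma*, were upregulated, against 1.89% of all genes. Their log2 fold changes were 2.20, 1.45 and 3.47 (adjusted p = 0.00380, 0.00181 and 0.000158, edgeR). The other 5 did not pass the test, with log2 fold changes of 1.01 for *Sox9*, 0.85 for *Cnmd*, 0.15 for *Col10a1*, -0.22 for *Hapln1* and -0.084 for *Col2a1*, the main cartilage collagen. Of the 7 osteoblast markers, *Alpl* and *Runx2* had enough counts to test. *Alpl* had 7, 9 and 23 counts in WT and 40, 36 and 47 in Mkx-/- libraries, and *Runx2* had 10, 7 and 6 against 13, 36 and 22. Neither overlapped between the genotypes, a pattern shared by 28.2% of all tested genes. Neither passed the threshold (log2 fold changes 1.58 and 1.49, adjusted p = 0.0722 and 0.0734, edgeR). Both passed the filter on low counts only through the Mkx-/- libraries, where they were higher, so their direction here is partly set by the filter. The other osteoblast markers were near the floor. *Dmp1* had 2, 3 and 4 counts in WT and 0, 1 and 0 in Mkx-/- libraries, and *Ibsp* 7, 9 and 23 against 12, 10 and 8. *Bglap* had 4, 8 and 5 against 5, 4 and 3, *Sp7* 6, 1 and 4 against 1, 2 and 5, and *Bglap2* 1, 2 and 2 against 1, 5 and 7. The 7 osteoblast markers summed to 2.91 to 5.37 normalized CPM in WT and to 6.59 to 7.29 in Mkx-/- libraries. Most of the Mkx-/- sum was *Alpl* and *Runx2*, and the part of these markers in the values of the members was not tested.

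The 10 genes together took 1.995% to 2.51% of all counts in WT and 3.30% to 3.58% in Mkx-/- libraries. These are shares of raw counts, of which *Col1a1*, *Col1a2* and *Sparc* took less in Mkx-/- libraries. The log2 difference of the summed CPM of the 10 genes was 0.42 with TMM and 0.68 with total-count scaling. Per kilobase their summed level was 8706, 8012 and 8077 normalized CPM in WT and 11425, 10476 and 9738 in Mkx-/- libraries, which did not overlap. *Bgn* and *Prelp* together made up 82.0% of the net difference between these means. Their joint share of the sum was 6.19%, 6.49% and 4.90% in WT and 21.4%, 23.9% and 21.7% in Mkx-/- libraries. The joint share of *Fmod* and *Dcn* was 87.9%, 85.7% and 86.8% in WT and 72.1%, 70.2% and 71.2% in Mkx-/- libraries. Class I held 31.4% ± 1.03 of the sum in WT and 34.5% ± 2.42 in Mkx-/- tendons, class II 67.2% ± 1.14 and 63.5% ± 2.40, and class III 1.40% ± 0.206 and 2.01% ± 0.155 (SD, n = 3 each). These sums follow the choice of members and were not tested.

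**Figure D4:**
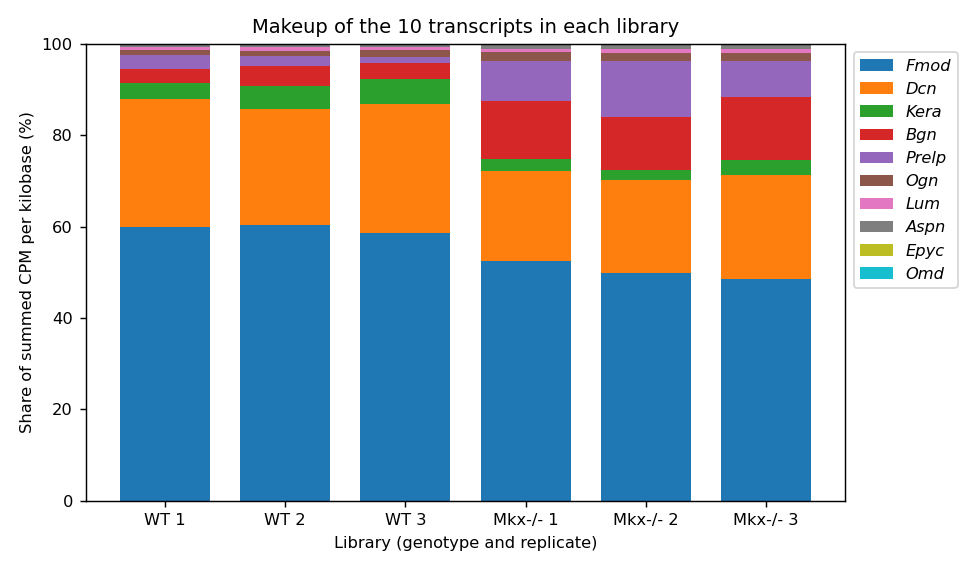
Share of each gene in the summed normalized CPM per kilobase of the 10 genes, in percent, for every library. *Bgn* and *Prelp* together widen from 4.90% to 6.49% in the WT bars to 21.4% to 23.9% in the Mkx-/- bars.

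Apart from *Bgn*, the members lie in 3 gene clusters, which were not used to pick them. On chromosome 10 *Dcn*, *Lum*, *Kera* and *Epyc* follow each other on the plus strand with gaps of 47.4, 34.5 and 30.4 kb. Only *Lum* of these passed the test, and *Kera* between *Lum* and *Epyc* had a log2 fold change of the other sign. On chromosome 13 *Ecm2*, *Aspn*, *Omd* and *Ogn* lie within the span of *Cenpp* on the opposite strand. *Omd* (log2 fold change -0.85) lies 15.2 kb from *Aspn* and 15.5 kb from *Ogn*, both of which rose. *Cenpp* had 5 to 17 counts in any library, and whether strand was used in counting is not stated, so that reads of *Cenpp* and of these members may not be separable. On chromosome 1 *Optc* and *Prelp* lie 2.30 kb apart on the minus strand, and *Fmod* on the plus strand further along. *Optc*, which encodes the class III member opticin of the eye, had 27, 17 and 6 counts in WT and 82, 112 and 46 in Mkx-/- libraries. It was upregulated with *Prelp*, with a log2 fold change of 2.15 ± 0.49 (SE) in edgeR, with adjusted p = 0.0424. *Optc* passed the filter on low counts only through the Mkx-/- libraries, where it was higher. The annotation also places *Gm15851* across *Optc* and *Prelp* on the opposite strand. The differences between neighbors were not tested.
Of the 18 annotated protein-coding genes that flank the clusters, 3 on each side, 12 had enough counts to test and 0 were called by edgeR. Over all tested genes 1.89% were called upregulated and 1.33% downregulated, so 0 calls among so few genes do not set them apart. In 5 of the 12 the genotypes did not overlap, beside 28.2% of all tested genes. *Ippk*, beside the chromosome 13 cluster, was the only 1 at an adjusted p under 0.05, with a log2 fold change of 0.87 (adjusted p = 0.0470, edgeR). At that threshold 3.18% of all tested genes were higher and 2.26% lower. The flanking genes spanned log2 fold changes of -0.51 to 1.13.

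**Figure D5:**
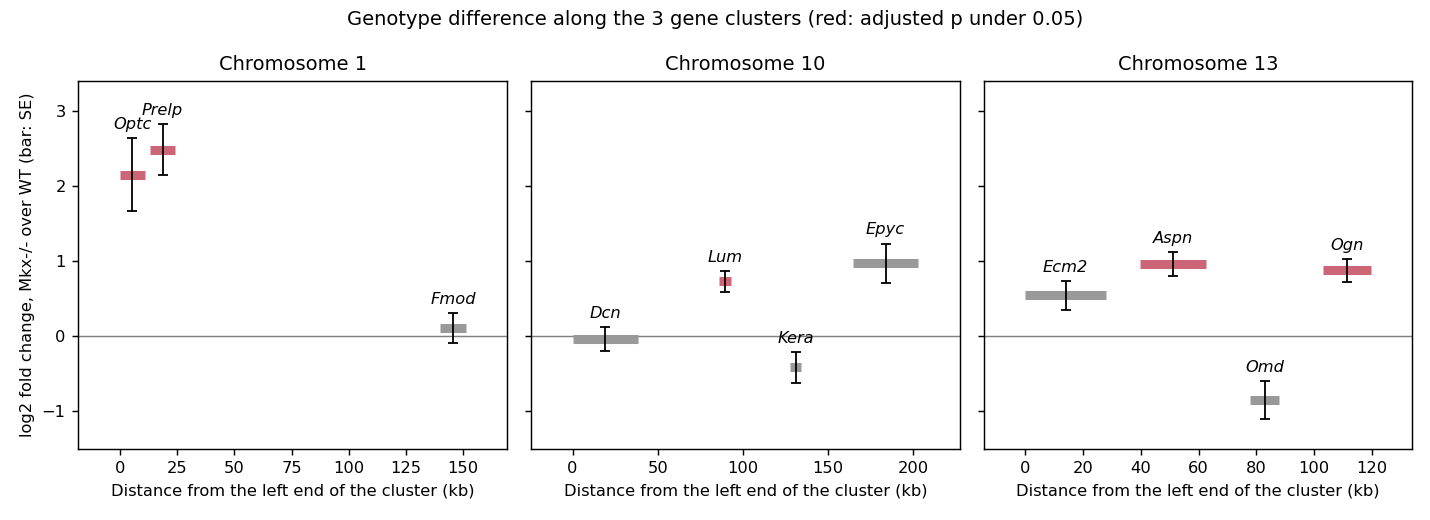
Log2 fold change of Mkx-/- over WT (bars, standard error) for the family genes of each cluster, drawn to scale from the left end of the cluster in kilobases, with red for an adjusted p under 0.05. On chromosome 13, *Omd* lies below 0 between *Aspn* and *Ogn*.

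More distant relatives of the family were read in the same fit. Of 8 such genes 6 had enough counts, all 6 had log2 fold changes above 0 (0.52 to 2.15), as had 49.5% of all tested genes, and 2 were upregulated, *Optc* and *Podn*, against 1.89% of all genes. Of these, *Optc* had enough counts only through the Mkx-/- libraries, where it was higher. *Podn*, which encodes podocan, had 54, 46 and 49 counts in WT and 97, 170 and 218 in Mkx-/- libraries, a log2 fold change of 1.59 ± 0.26 (SE) in edgeR, with adjusted p = 0.0134. *Chad*, which encodes the integrin-binding cartilage protein chondroadherin, had 582, 340 and 358 normalized CPM per kilobase in WT and 558, 895 and 618 in Mkx-/- libraries. Its WT level of 427 ± 135 was of the order of that of *Kera*, and its groups overlapped (log2 fold change 0.69, adjusted p = 0.160, edgeR). *Chadl*, *Ecm2* and *Tsku* had log2 fold changes of 0.70, 0.54 and 0.52 and did not pass the test (adjusted p = 0.130, 0.142 and 0.209, edgeR). *Nyx* and *Podnl1* were too rare to test. *Nyx* had 30, 7 and 11 counts in WT and 2, 6 and 3 in Mkx-/- libraries, the opposite order without overlap, and *Podnl1* had 1 to 5 counts in any library.

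The enzymes that build the sugar chains of these proteoglycans were read as lists. Of 25 tested genes of chondroitin and dermatan sulfate synthesis, 0 were called by edgeR in either direction, beside 1.89% of all tested genes upregulated and 1.33% downregulated. At an unadjusted p under 0.05, 6 of the 25 were higher and 2 lower, beside the 12.5% and 10.1% of all genes given above. The list's median log2 fold change lay at 0.011. At an adjusted p under 0.05 alone, 3.18% of all tested genes were higher and 2.26% lower. In this list 3 were higher and 1 was lower, and these are named after their values were seen. *Chst15*, a chondroitin 6-O-sulfotransferase that acts on residues already sulfated at position 4, went from 11.8 ± 0.739 to 23.3 ± 2.33 CPM (SD over 3 libraries each), and its log2 fold change was 0.99 (adjusted p = 0.00620, edgeR). *Chst3*, the main chondroitin 6-sulfotransferase, and *Ugdh*, which makes the UDP-glucuronate for the chains, had 0.67 and 0.51 (adjusted p = 0.0385 and 0.0484, edgeR). *Papss2*, which makes the sulfate donor, fell by 0.62 on the log2 scale (adjusted p = 0.0496, edgeR). The dermatan sulfate epimerase genes *Dse* and *Dsel* were among the genes that did not pass. Of 9 genes tested for keratan sulfate and tyrosine sulfation, 0 were called by edgeR, and *B4galt1*, the only 1 higher at an unadjusted p under 0.05, was also past an adjusted p of 0.05 (log2 fold change 0.53, adjusted p = 0.0333, edgeR). The shares of all tested genes given for the chondroitin list are the background here too.

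Of 12 tested proteases and enhancers that process or cleave these proteins, *Mmp2* was upregulated (log2 fold change 1.12, adjusted p = 0.00380, edgeR). Over all tested genes 1.89% were upregulated and 1.33% downregulated, the background for this list and those that follow. *Bmp1*, which trims the biglycan propeptide, had 956 and 939 CPM in WT and Mkx-/- tendons (adjusted p = 0.957, edgeR). The median of this list was -0.080. Among 14 collagens that these proteoglycans bind or that share their fibrils, 3 were upregulated, the fibril-starting *Col5a1* and *Col5a2* (log2 fold changes 2.16 and 1.25) and *Col3a1* (1.09), and *Col11a2* was downregulated (-1.72), with edgeR adjusted p of 0.00141, 0.00445, 0.0172 and 0.0107. The median was -0.095. Among 18 tested receptors and ligands tied to these proteoglycans, *Met* was downregulated (log2 fold change -1.32, adjusted p = 0.00330, edgeR) and 0 were upregulated. With an unadjusted p under 0.05, 3 of the 18 were higher and 4 lower, beside 12.5% and 10.1% of all tested genes. The TGF-beta genes *Tgfb1*, *Tgfb2* and *Tgfb3* had log2 fold changes of 0.37, -0.17 and 0.038 and did not pass the test.

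The genes most like the upregulated members in their profile over the 6 libraries were found by the root mean square difference of mean-centered log2 CPM, among 10294 genes whose mean CPM was 5 or more. For *Bgn* these were *Col5a1* (difference 0.081), *Pamr1* (0.096) and *Armc4* (0.10), with log2 fold changes of 2.16, 2.21 and 2.16. *Col5a1* had 743 CPM in WT and 3320 in Mkx-/- tendons, and *Pamr1* had 128 and 592. For *Prelp* the closest were *Adh7* (0.34), *Ltbp2* (0.34) and *Pnldc1* (0.35). *Adh7* went from 2.26 to 13.02 CPM, *Pnldc1* from 1.18 to 8.90 and *Armc4* from 3.94 to 17.5, so these 3 passed the filter on mean CPM only through the Mkx-/- libraries. The profiles are dominated by the same genotype difference by which *Bgn* and *Prelp* were called, so the likeness is a description over 6 libraries and supports nothing further.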

How the data were processed

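The deposited values are raw counts per gene symbol, made by the authors from Ion Proton reads of total RNA (Ion Total RNA-Seq Kit v2) aligned with MapSplice 2.1.6 to the mouse build mm9. The counting program, its annotation and its use of strand are not given in the sources used here, so genes with a partner on the opposite strand are uncertain. All 6 columns were matched by label, and 0 were left unused.

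Counts were filtered with filterByExpr, scaled by TMM and fitted on genotype with edgeR 4.0.16 (R 4.3.3) by the quasi-likelihood test, with Benjamini-Hochberg adjustment over 14550 genes. Calls need an adjusted p under 0.05 together with at least a doubling or halving (log2 fold change beyond 1 or -1). Standard errors are the log2 fold change divided by the root of F, and intervals use the t distribution of the fit. Depths of 10835070 to 14160301 counts leave genes of about 100 counts, such as *Omd*, with a clear counting error. DESeq2 1.42.0 was an alternative. Fits were tested on simulated data. Gene lengths are unions of exons in the GENCODE annotation of mm9. Promoters are RefSeq entries of GRCm38.p6. Protein sequences were not used here. Chi-square per degree of freedom between replicates was 7.59 to 36.4, so no library was a second sequencing of another of its genotype. These values cannot tell whether libraries shared a mouse. Named are all members, relatives of the family, called genes of each list (at most 5) and neighbors of the clusters. The 3 closest profiles of each called member are also named, as are cell type markers where they stand beside a result. Outside this rule, the sugar chain enzymes past an adjusted p of 0.05 were named without a call. The same holds for *Dse*, *Dsel*, *Bmp1*, *Tgfb1*, *Tgfb2* and *Tgfb3*. Members, lists and tests were chosen with earlier results of these data known. The alternatives were DESeq2, 4 other scalings (RLE, upper quartile, total counts, and TMM without *Col1a1*, *Col1a2*, *Sparc* and the members), looser (1 count in any library) and stricter (10 counts in each) filters, a robust fit, the replicate number as a block, removal of muscle markers, each library left out, glmTreat for counts of calls, and another transcript length.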

Additional observations from a re-analysis of the deposited data

How the results depend on the processing

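The directions of *Bgn*, *Lum*, *Kera*, *Prelp*, *Omd*, *Ogn*, *Aspn* and *Epyc* were the same in all 16 alternatives. *Dcn* turned to 0.21 with total-count scaling and to 0.027 without WT replicate 1, and *Fmod* to -0.0087 without Mkx-/- replicate 1, none past the test. With a library left out they ranged from -0.12 to 0.027 and from -0.0087 to 0.19. The 2 members called upregulated became 5 with total-count scaling and 1 with glmTreat, and 1 to 3 with a library left out (1 without WT replicate 2), and 0 were called downregulated in any of these. The 5 members higher at an adjusted p under 0.05 became 3 with the replicate block, and 1 to 5 with a library left out. This count, run under the alternatives, was added after seeing the data. Over all genes, 275 upregulated and 193 downregulated genes became 541 and 322 with the filter of 1 count and 34 and 41 with glmTreat, and total-count scaling gave 711 upregulated genes and raised the median of all genes by 0.25, so that 82.2% of calls were upward against 58.8%. Over all genes, leaving out a library gave 103 to 321 upregulated genes (119 without WT replicate 2, 103 without WT replicate 3, 155 and 177 without Mkx-/- replicates 2 and 3) and 112 to 248 downregulated genes (113 and 112 without WT replicates 2 and 3, 121 without Mkx-/- replicate 3). The summed level of the members, a log2 difference of 0.42, was 0.68 with total-count scaling. Taking the longest transcript as the length, 2 members changed places in the WT order (*Bgn* with *Kera*). The shared replicate numbers do not pair the libraries: deviations of same-numbered libraries correlated at -0.0021, -0.31 and 0.38, and beside the count above the replicate block ended the adjusted p of *Lum* (0.0509) and *Ogn* (0.0630) and left the others on their side. The cause of these changes was not tested.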

Other observations

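The members differed in how far libraries of 1 genotype spread. In WT tendons the coefficient of variation was 43.6% for *Prelp*, 34.7% for *Epyc*, 19.6% for *Kera*, 17.3% for *Omd*, 16.6% for *Aspn* and 15.2% for *Bgn*, and 5.23% to 10.4% for *Fmod*, *Lum*, *Dcn* and *Ogn*. In Mkx-/- tendons it ran from 2.28% for *Dcn* to 27.6% for *Omd*. With 3 libraries per genotype these spreads are themselves uncertain and were not compared by a test.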
